A study of Ovis aries with 6 samples.

Results

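In this study 10 genes of bone formation and heart valve calcification were followed in cultured sheep (Ovis aries) endothelial cells (VECs) of the mitral valve, which cover its leaflets and face the blood. They are the rows of the count table named BMP2, BMP4, BMP6, RUNX2, SOX9, MSX2, ALPL, ENPP1, SPP1 and MGP, and all 10 were found among its 18865 rows. The cultures received sheep plasma for 24 h, either naive plasma (3 libraries) or plasma taken after myocardial infarction (post-MI plasma, 3 libraries). Both groups therefore contain plasma, and cells without plasma were not analysed here. The labels name no cell line, donor, age or passage and do not say whether plasma was pooled. Whether each library had its own culture is likewise not stated, and p-values therefore describe the spread among these 6 libraries, which could be technical. The series concerns endothelial-to-mesenchymal transition after infarction, and the comparison asks here whether post-MI plasma is accompanied by an osteogenic pattern of transcripts.

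Valve calcification resembles bone formation in several of its steps. Bone morphogenetic proteins (BMPs) bind cell surface receptors, SMAD proteins carry the signal to the nucleus, and transcription factors such as RUNX2 and SOX9 turn on bone or cartilage genes. Mineral then forms where phosphate outweighs pyrophosphate. ENPP1 produces pyrophosphate, ALPL (tissue-nonspecific alkaline phosphatase) destroys it, and the secreted proteins MGP (matrix Gla protein) and SPP1 (osteopontin) restrain crystal growth.

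The VECs carried abundant BMP4, BMP6 and SPP1 transcripts in all 6 libraries, while ALPL was near 0 and BMP2, RUNX2, SOX9 and MSX2 had at most 50 counts in any library. In edgeR's quasi-likelihood test 0 of the 8 tested members were called higher and 0 lower with post-MI plasma, with adjusted p from 0.629 (BMP6) to 0.955 (SOX9). The background was the same, since edgeR called 0 of 14326 genes (0%), while 1244 genes (8.68%) had an unadjusted p under 0.05. No member was among those, and 0 members were called by limma-voom, which called 0 genes, or by the DESeq2 Wald test, which called 218 genes (1.56% of 14001) and gave no adjusted p for SOX9. The median log2 fold change of the 8 tested members was -0.24, against -0.01 over all genes tested, with 3 members above 0 and 5 below, where 47.9% and 52.1% of all genes lay above and below. Without naive replicate 1 the median was -0.08, with 4 members above 0 and 4 below. Library-to-library differences were large in these genes, with a median within-group SD of 0.64 on the log2 CPM scale against 0.26 for all genes tested and 0.22 for genes whose log2 CPM averaged 4 or more.

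Levels are given as CPM, the count scaled to a fixed library total, after TMM, a correction for differences in library composition. They are not divided by gene length and so compare libraries, not genes. Total counts ran from 14858472 to 20672794 per library, and a count of 3, the limit that a count of 0 allows, equals 0.141 to 0.205 CPM. Such limits cover counting error only. Naive replicate 1 stood apart from the other libraries, at -52.3 on the first principal component against -0.50 to 18.5, so log2 fold changes on leaving it out are also given for the 8 tested members and some of the other genes. All 10 endothelial markers were detected, with summed levels of 2658 to 3292 CPM in naive and 2860 to 4080 CPM in post-MI libraries. Markers of valve interstitial cells and fibroblasts were also detected, 8 of 8, at 5864 to 14378 and 10261 to 12481 CPM. Smooth muscle and pericyte markers summed to 907 to 5038 and 4560 to 6235 CPM, with RGS5 at 0 counts and no row for DES. Detection of markers therefore does not by itself settle the identity of the cells. In bulk RNA, other cells in the culture and such transcripts within VECs cannot be told apart, nor can fewer cells of a type and less RNA per cell.

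**Figure D1:**
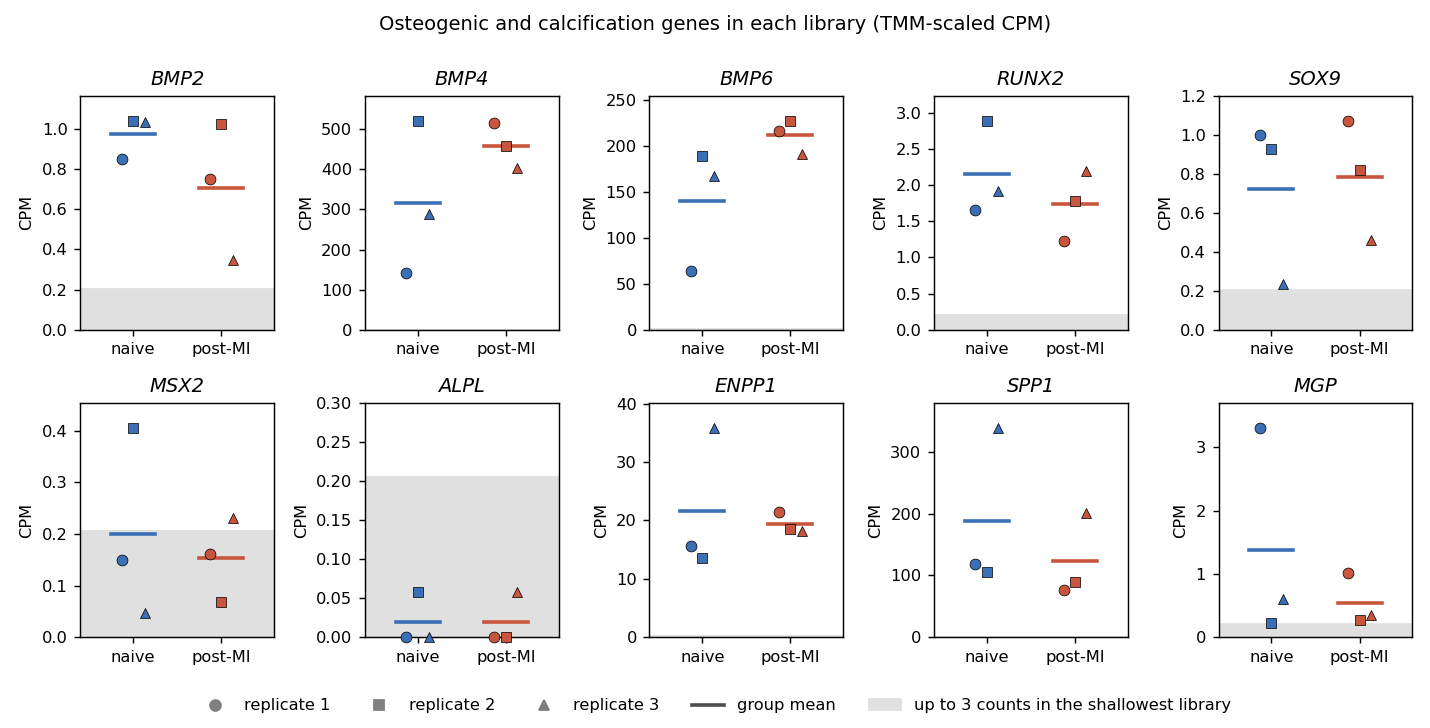
TMM-scaled CPM of the 10 genes (linear vertical axes, each panel with its own scale) in the 3 naive (blue) and 3 post-MI (red) libraries. Points are libraries, bars are group means, and the grey band reaches 0.205 CPM, the value of 3 counts in the shallowest library. The groups overlap in every panel but that of BMP6, and ALPL lies within the band in all libraries.

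Among the BMP ligands, BMP4 and BMP6 averaged more with post-MI plasma, but neither passed the test. BMP4 was at 141, 522 and 288 CPM in naive replicates 1, 2 and 3 and at 515, 459 and 404 CPM in post-MI replicates 1, 2 and 3. The post-MI values lay inside the naive range, whose low end was naive replicate 1 and whose high end was naive replicate 2. Group means were 317 ± 192 and 459 ± 55.3 CPM (SD, n = 3 each), and the log2 fold change was 0.53 ± 0.42 (SE) with a 95% interval of -0.46 to 1.53 (edgeR adjusted p = 0.695). The log2 fold change became 0.19 on leaving out naive replicate 1 and 1.10 on leaving out naive replicate 2.

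BMP6, a ligand that in the liver links iron status to hepcidin and that also acts on bone, was at 63.9, 189 and 168 CPM in the naive and 216, 227 and 191 CPM in the post-MI libraries. All post-MI values were above all naive values, although post-MI replicate 3 exceeded naive replicate 2 by little. Of all genes tested, 8.33% were without overlap in the higher direction and 16.1% in either, and among the 8 tested members BMP6 was the 1 gene without overlap. Its means were 140 ± 66.8 and 211 ± 18.8 CPM (SD, n = 3 each), and the log2 fold change was 0.59 ± 0.37 (SE) with a 95% interval of -0.28 to 1.47 (edgeR adjusted p = 0.629). Without naive replicate 1 the log2 fold change was 0.26.

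BMP4 and BMP6 had their lowest level in the same library, naive replicate 1. The highest library exceeded the lowest 3.69-fold for BMP4 and 3.55-fold for BMP6. In the libraries other than naive replicate 1, BMP4 ran from 288 to 522 CPM and BMP6 from 168 to 227 CPM. The ratio of BMP4 to BMP6 counts varied 1.61-fold over all libraries. It was 2.21, 2.76 and 1.72 in the naive and 2.38, 2.02 and 2.12 in the post-MI libraries. Its extremes were naive replicates 2 and 3, so likeness beyond the low value in naive replicate 1 is not shown. This ratio was chosen after the values were seen. Naive replicate 1 was the lowest library for 29.2% and the highest for 28.8% of all genes tested.

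BMP2, the ligand most used to induce bone experimentally, was scarce. It had 17, 18 and 22 counts in the naive and 14, 15 and 6 counts in the post-MI libraries, or 0.85, 1.04 and 1.03 against 0.75, 1.02 and 0.35 CPM. Post-MI replicate 3 was the low library, and the other 2 post-MI values reached the naive range or came close to it. The log2 fold change was -0.47 ± 0.46 (SE), with a 95% interval of -1.55 to 0.60 (edgeR adjusted p = 0.751). It became -0.55 on leaving out naive replicate 1 and -0.14 on leaving out post-MI replicate 3.

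The transcription factors of bone and cartilage were low in both groups. RUNX2, which commits cells to the osteoblast lineage, had 33, 50 and 41 counts with naive and 23, 26 and 38 counts with post-MI plasma, or 1.65, 2.89 and 1.93 against 1.23, 1.78 and 2.19 CPM. The groups overlapped, with the highest value in naive replicate 2 and the lowest in post-MI replicate 1. The log2 fold change was -0.31 ± 0.36 (SE), with a 95% interval of -1.17 to 0.54 (edgeR adjusted p = 0.796). It became -0.46 on leaving out naive replicate 1 and -0.05 on leaving out naive replicate 2.

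SOX9, the master factor of cartilage and a regulator of valve progenitors, had 20, 16 and 5 counts in the naive and 20, 12 and 8 counts in the post-MI libraries, or 1.0, 0.93 and 0.24 against 1.07, 0.82 and 0.46 CPM. Replicate 3 was the lowest library in each group. The log2 fold change was 0.14 ± 0.61 (SE), with a 95% interval of -1.30 to 1.57 (edgeR adjusted p = 0.955), and it became 0.49 on leaving out naive replicate 1, -0.29 on leaving out naive replicate 3 and -0.17 on leaving out post-MI replicate 1. MSX2, a homeobox factor downstream of BMP signals, had 3, 7 and 1 counts with naive and 3, 1 and 4 counts with post-MI plasma. It did not pass the count filter, and a difference between the groups was not detectable at this depth.

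ALPL, the enzyme that marks mineralizing osteoblasts, had 0, 1 and 0 counts with naive and 0, 0 and 1 counts with post-MI plasma. All 6 values were below the limit of 3 counts, so no fold is given and an ALPL transcript level was not measurable in either group. ENPP1, its counterpart in pyrophosphate balance, was expressed at 15.6, 13.5 and 35.8 CPM in the naive and 21.4, 18.6 and 18.1 CPM in the post-MI libraries. Naive replicate 3 was the high library, and the post-MI values lay between the naive ones. The ENPP1 log2 fold change was -0.16 ± 0.36 (SE), with a 95% interval of -1.02 to 0.70 (edgeR adjusted p = 0.904), and it became -0.34 on leaving out naive replicate 1 and 0.42 on leaving out naive replicate 3.

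The secreted mineral-binding proteins were led by SPP1, a phosphoprotein of bone matrix that is also made by macrophages. SPP1 was at 119, 106 and 338 CPM in the naive and 77.2, 89.0 and 201 CPM in the post-MI libraries. Replicate 3 was the highest library of each group, and the groups overlapped. The means were 187 ± 131 and 123 ± 68.6 CPM (SD, n = 3 each), and the log2 fold change was -0.61 ± 0.55 (SE) with a 95% interval of -1.9 to 0.67 (edgeR adjusted p = 0.730). On leaving out naive replicate 1 it became -0.85, on leaving out naive replicate 3 it became 0.13, and on leaving out post-MI replicate 3 it became -1.17.

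MGP, a vitamin K-dependent inhibitor of vascular calcification, had 66, 4 and 13 counts with naive and 19, 4 and 6 counts with post-MI plasma, or 3.30, 0.23 and 0.61 against 1.02, 0.27 and 0.35 CPM. Naive replicate 1 was far above the other libraries, and the highest library exceeded the lowest 14.3-fold. The log2 fold change was -1.31 ± 0.98 (SE), with a 95% interval of -3.63 to 1.01 (edgeR adjusted p = 0.679), and it was 0.38 without naive replicate 1. The ratio of MGP to BMP2 counts, an inhibitor against a ligand within each library, was 3.88, 0.22 and 0.59 in the naive and 1.36, 0.27 and 1 in the post-MI libraries. The groups overlapped, and their mean log2 ratios of -0.32 and -0.49 differed by less than the pooled SD of 1.73. A pair of further ratios was chosen after the values were seen and not tested. The ratio of BMP6 to BMP2 counts was 75.2, 181 and 162 in the naive and 288, 222 and 551 in the post-MI libraries, without overlap, and its mean log2 values of 7.02 and 8.36 compare with a pooled SD of 0.68. The BMP2 counts behind it were 6 to 22. Its lowest value was in naive replicate 1, where BMP6 was lowest, and its highest in post-MI replicate 3, which had 6 BMP2 counts. How often other ratios are without overlap was not worked out. The ratio of SPP1 to ENPP1 counts was 7.63, 7.80 and 9.45 in the naive and 3.60, 4.79 and 11.1 in the post-MI libraries, which overlapped.

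**Figure D2:**
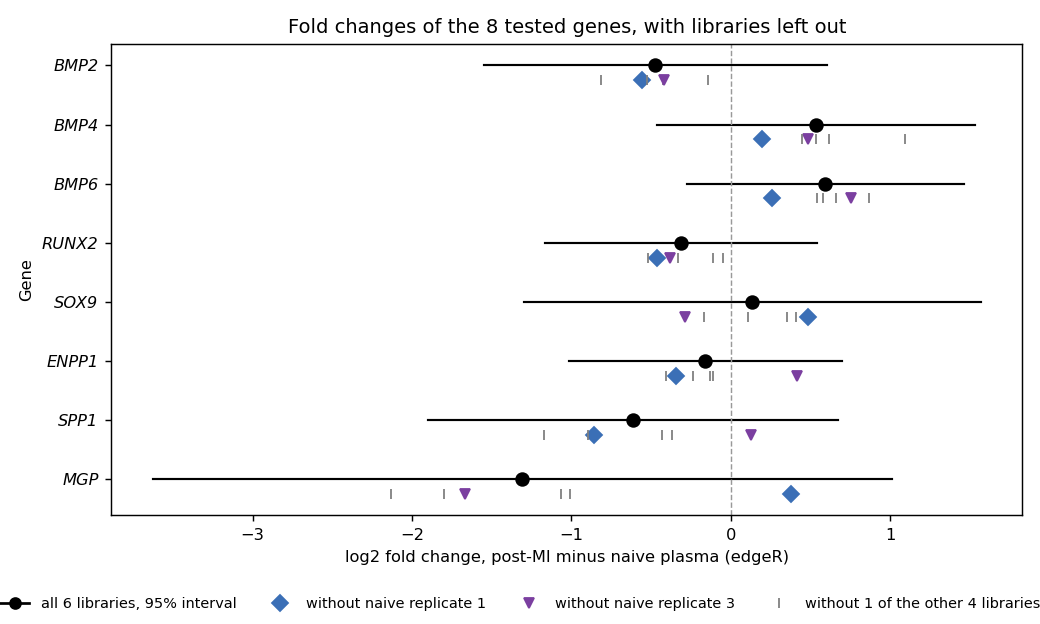
Log2 fold changes of the 8 tested genes, post-MI minus naive plasma, from edgeR. Black points and lines are all 6 libraries with 95% intervals, and the smaller marks below each line are fits without 1 library. All 8 intervals include 0, and the marks without naive replicate 1 (MGP) or naive replicate 3 (SOX9, ENPP1 and SPP1) lie on the other side of 0, as does that of SOX9 without post-MI replicate 1.

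SPP1 and ENPP1 were both highest in naive replicate 3, which was the highest library for 18.1% of all genes tested. In that library the interstitial and fibroblast markers DCN, LUM, DPT and PDGFRB were also at their highest, 4 of the 8 markers on the list. DCN, a matrix proteoglycan, was at 55.8 CPM there and at 5.70 to 25.5 CPM in the other 5 libraries. LUM, a related proteoglycan, was at 133 CPM there and 26.3 to 77.4 CPM elsewhere. The list's summed level was not highest there, at 11344 CPM against 14378 CPM in naive replicate 2, and its part in the SPP1 and ENPP1 values was not tested. Leukocyte and macrophage markers summed to 42.1 CPM in naive replicate 3, within the 35.6 to 59.2 CPM of the other libraries. Within that list the macrophage receptor CSF1R and ITGAM were highest in naive replicate 3, at 13 and 7 counts. The pan-leukocyte gene PTPRC was lowest there, at 3 counts. CD3E had 7 counts there, and its highest CPM was in naive replicate 2. CD14, CD68 and CD163 were highest in naive replicate 1.

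In naive replicate 1, where BMP4 and BMP6 were lowest and MGP highest, smooth muscle and pericyte markers summed to 907 CPM against 2546 to 6235 CPM in the other libraries. Their part in these values was not tested. The summed level of the interstitial list was also at its lowest there, 5864 CPM, with COL1A1 at 3171 and COL3A1 at 2482 CPM. Of its 8 markers 5 were lowest there. PDGFRA was highest there, at 58.5 CPM against 24.7 to 32.0 CPM elsewhere, and LUM and DPT were lowest in post-MI replicate 1. TNFRSF11B (osteoprotegerin), a decoy receptor that restrains bone resorption and vascular calcification, was at 8.75 CPM in naive replicate 1, with 84.7 to 168 CPM in the other 5 libraries, and was singled out after its values were seen.

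**Figure D3:**
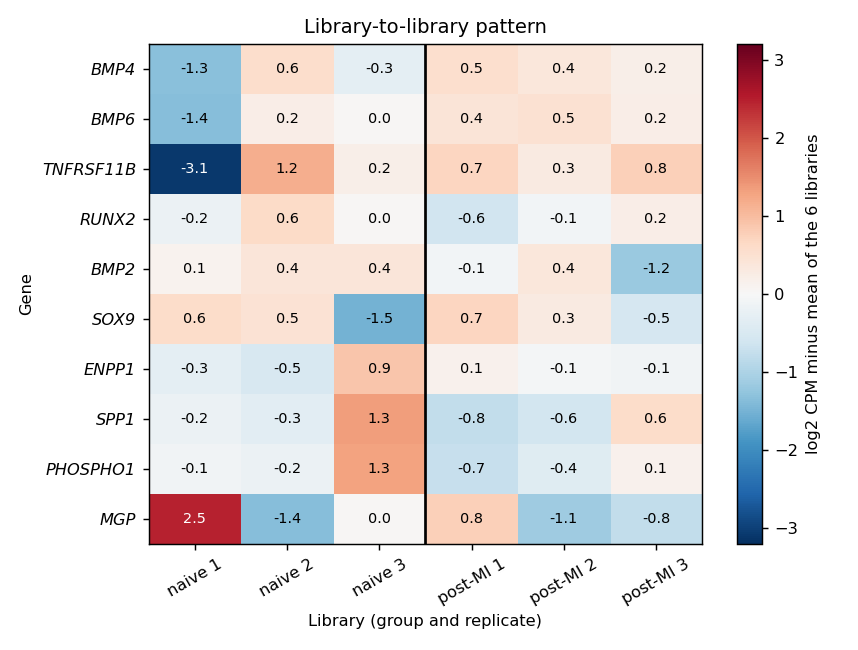
Log2 CPM of 8 members, TNFRSF11B and PHOSPHO1 in each library minus the gene's mean over the 6 libraries (red above, blue below, black line between the groups). BMP4, BMP6 and TNFRSF11B are lowest and MGP highest in naive replicate 1, and SPP1, ENPP1 and PHOSPHO1 are highest in naive replicate 3. PHOSPHO1 was picked for its likeness to SPP1, and TNFRSF11B after its values were seen.

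The genes closest in pattern were found for the 3 members that varied most, by the root mean square difference between log2 CPM profiles over the 6 libraries, each centred on its mean. For BMP4 they were SHF (0.12), EMCN (0.13) and RCBTB2 (0.14), of which EMCN encodes the endothelial sialoprotein endomucin. EMCN was at 149, 448 and 311 CPM in the naive and 473, 471 and 350 CPM in the post-MI libraries. For SPP1 they were ARHGEF37 (0.17), PHOSPHO1 (0.23) and the prostacyclin receptor PTGIR (0.25). For MGP they were ACKR1 (0.45), an atypical chemokine receptor of venular endothelium, the matrix metalloproteinase MMP3 (0.48) and LYST (0.50). MMP3 was at 4.55 CPM in naive replicate 1, with 0.41 to 1.45 CPM elsewhere. These are likenesses over 6 libraries and include the influence of naive replicates 1 and 3. The smallest adjusted p of the 9 genes in edgeR was that of LYST, 0.570, whose log2 fold change of -1.10 became -0.24 on leaving out naive replicate 1.

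PHOSPHO1, a phosphatase that supplies phosphate inside matrix vesicles, also belongs to the phosphate list. It was at 1.9, 1.79 and 4.98 CPM in the naive and 1.23, 1.57 and 2.25 CPM in the post-MI libraries. Its highest value was in naive replicate 3, as for SPP1, which follows from its choice by likeness to SPP1. The groups overlapped, and the log2 fold change was -0.78 ± 0.49 (SE, edgeR adjusted p = 0.629), or -0.13 without naive replicate 3.

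In all, 8 lists of other genes of these pathways held 92 genes, of which 63 were tested. Of the 63, edgeR called 0 higher and 0 lower, limma-voom called 0 and DESeq2 called 1 (ID2). The DESeq2 share over all genes was 1.56%. At an unadjusted edgeR p under 0.05 there were 6, where the share over all genes tested was 8.68%. The log2 fold changes were positive for 31 and negative for 32, with a median of -0.02 against -0.01 over all genes tested. Without naive replicate 1 the median of these lists was -0.12, with 24 positive and 39 negative. All genes tested then had a median of 0.004, with 7236 positive and 7090 negative. The groups were without overlap in 9 of the 63, 4 higher and 5 lower, where the shares over all genes are 8.33% and 7.81%. The genes described below for each list were mainly those of smallest edgeR p in that list. Such a choice favours genes without overlap, so the lack of overlap in a described gene is not a separate result.

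**Figure D4:**
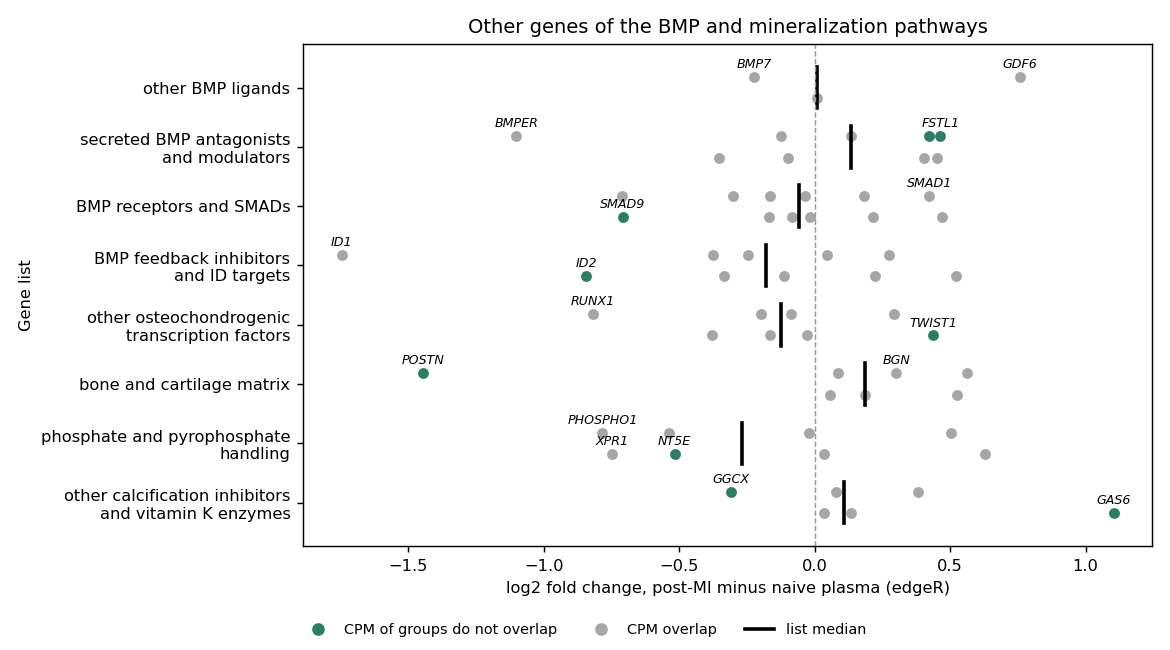
Log2 fold changes, post-MI minus naive plasma, of the 63 tested genes in 8 pathway lists. Green points are genes whose CPM did not overlap between the groups, grey points overlapped, and black bars are list medians. Values lie between -1.75 (ID1) and 1.10 (GAS6), and 9 points are green.

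Few other ligands of this family had enough counts to test. Of 10 listed, 8 had a row in the count table (not BMP8A and BMP8B). Tested were 3, BMP7, GDF6 and the activin subunit gene INHBA, with 0 called. Their median log2 fold change of 0.01 was the value of INHBA. GDF6, a growth factor of joints and cartilage, was at 1.9, 6.19 and 1.13 CPM in the naive and 6.64, 5.05 and 3.75 CPM in the post-MI libraries (edgeR adjusted p = 0.701). BMP7 gave a log2 fold change of -0.22 ± 0.33 (SE).

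Secreted BMP antagonists and modulators numbered 9 tested of 13, with 5 positive and 4 negative log2 fold changes, 0 called and a median of 0.13. Without naive replicate 1 the median was -0.07, with 4 positive and 5 negative. FSTL1, a follistatin-like glycoprotein, was at 643, 871 and 865 CPM in the naive and 1050, 1118 and 1114 CPM in the post-MI libraries. The groups did not overlap, and the log2 fold change was 0.46 ± 0.17 (SE, edgeR adjusted p = 0.561). BMPER, which binds BMP4 outside endothelial cells, was at 2.20, 17.7 and 7.28 CPM with naive and 4.39, 3.76 and 4.44 CPM with post-MI plasma. Its log2 fold change was -1.10 ± 0.65 (SE, edgeR adjusted p = 0.618), and it became -1.55 on leaving out naive replicate 1 and -0.18 on leaving out naive replicate 2.

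All 12 BMP receptors and SMADs were tested, with 0 called, 4 positive and 8 negative log2 fold changes and a median of -0.06. SMAD1, which transmits BMP signals, averaged 75.0 ± 12.6 and 101 ± 18.4 CPM (SD, n = 3 each; log2 fold change 0.42 ± 0.20 SE, edgeR adjusted p = 0.570). Its relative SMAD9 was at 12.4, 5.44 and 6.95 CPM in the naive and 4.93, 5.12 and 5.14 CPM in the post-MI libraries. The groups did not overlap, and the SMAD9 log2 fold change was -0.71 ± 0.32 (SE, edgeR adjusted p = 0.566), or -0.29 without naive replicate 1.

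The targets and feedback inhibitors of BMP signalling held 10 tested genes, with 0 called by edgeR, 4 positive and 6 negative log2 fold changes and a median of -0.18. ID2, a BMP-induced antagonist of helix-loop-helix factors, was at 22.9, 28.4 and 25.3 CPM in the naive and 13.1, 15.8 and 13.8 CPM in the post-MI libraries. Its groups did not overlap, and its log2 fold change was -0.84 ± 0.15 (SE, edgeR adjusted p = 0.292, DESeq2 adjusted p = 0.00300). ID1 was at 14.9, 3.36 and 8.60 CPM with naive and 1.77, 1.71 and 4.50 CPM with post-MI plasma (log2 fold change -1.75 ± 0.61 SE, edgeR adjusted p = 0.556). It became -1.17 on leaving out naive replicate 1 and -2.36 on leaving out post-MI replicate 3. The ligands BMP4 and BMP6 had log2 fold changes of 0.53 and 0.59 in the same libraries, or 0.19 and 0.26 without naive replicate 1. Neither ligand was called (edgeR adjusted p = 0.695 and 0.629), and a link between them and the ID genes was not tested.

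Among other osteochondrogenic transcription factors 8 of 13 were tested, with 0 called, 2 positive and 6 negative log2 fold changes and a median of -0.13. Without naive replicate 1 the median was 0.03, with 4 positive and 4 negative. TWIST1, a mesenchymal factor that holds back RUNX2, was at 1.9, 2.66 and 2.07 CPM in the naive and 2.95, 3.14 and 2.89 CPM in the post-MI libraries, without overlap (log2 fold change 0.44 ± 0.26 SE, edgeR adjusted p = 0.618). The TWIST1 counts were 38, 46 and 44 against 55, 46 and 50, so the separation rests on few counts and on scaling. RUNX1 was at 20.4 CPM in naive replicate 1, with 4.13 to 8.37 CPM elsewhere. The RUNX1 log2 fold change was -0.82 ± 0.59 (SE, edgeR adjusted p = 0.664) and moved to 0.15 without naive replicate 1.

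Of 14 bone and cartilage matrix genes listed, 7 were tested with 0 called, and 5 of the others had at most 3 counts in every library. BGLAP (osteocalcin) and MEPE had 0 counts in all 6 libraries, and IBSP (bone sialoprotein) had 2 counts in naive replicate 2 and 0 elsewhere. The osteoblast and chondrocyte marker list summed to 0.17 to 0.30 CPM in naive and 0.20 to 0.38 CPM in post-MI libraries. SP7 (osterix), on that list, had no row in the count table and could not be measured. The tested matrix genes had a median log2 fold change of 0.19, with 6 positive and 1 negative, and -0.14 with 2 positive and 5 negative without naive replicate 1. POSTN (periostin), a matrix protein of valves and bone, was the negative one, at 3059, 868 and 733 CPM in the naive and 633, 503 and 577 CPM in the post-MI libraries. POSTN did not overlap between the groups, and its log2 fold change was -1.44 ± 0.54 (SE, edgeR adjusted p = 0.561), or -0.48 without naive replicate 1. BGN (biglycan) gave 0.30 ± 0.20 (SE) and 0.17 without naive replicate 1.

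**Figure D5:**
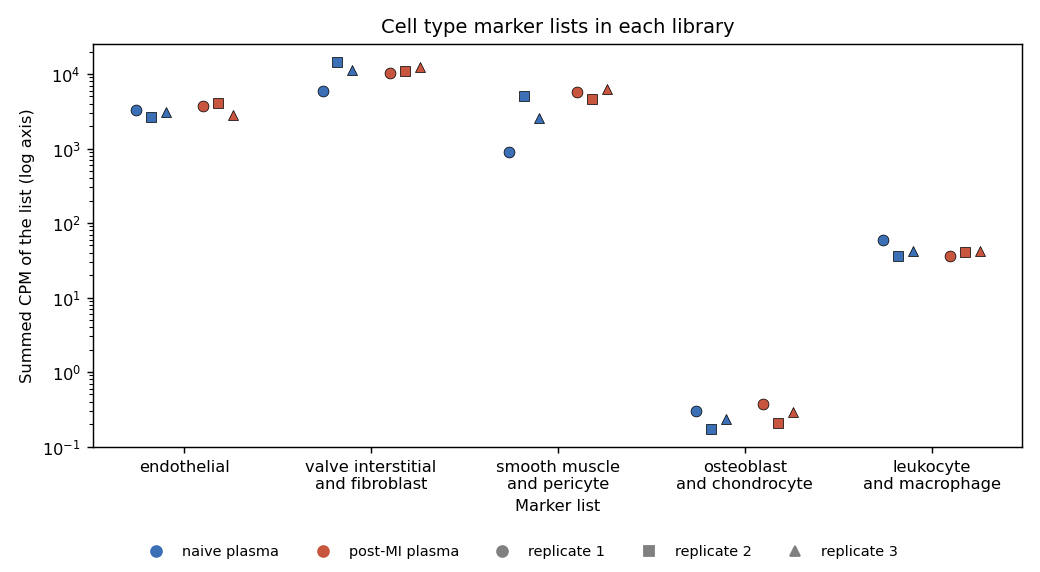
Summed CPM of 5 cell type marker lists (logarithmic vertical axis) in each naive (blue) and post-MI (red) library. The osteoblast and chondrocyte list, for which SP7 had no row, stays below 0.38 CPM in every library. The endothelial list lies between 2658 and 4080 CPM.

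Phosphate and pyrophosphate genes numbered 8 tested of 10, with 0 called, 3 positive and 5 negative log2 fold changes and a median of -0.27. NT5E (CD73), which makes adenosine from AMP and whose loss in humans leads to arterial calcification, was at 72.8, 57.0 and 66.3 CPM in the naive and 49.2, 45.8 and 42.2 CPM in the post-MI libraries. NT5E did not overlap between the groups, and its log2 fold change was -0.52 ± 0.14 (SE, edgeR adjusted p = 0.489), or -0.42 without naive replicate 1. XPR1, a phosphate exporter, was at 39.6 CPM in naive replicate 1, with 12.6 to 17.7 CPM elsewhere. Its log2 fold change came to -0.75 ± 0.37 (SE, edgeR adjusted p = 0.579) and was -0.18 without naive replicate 1.

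Of 10 other calcification inhibitors and vitamin K enzymes 6 were tested, with 0 called, 5 positive and 1 negative log2 fold change and a median of 0.11, and -0.14 with 2 positive and 4 negative without naive replicate 1. GAS6, a vitamin K-dependent ligand of TAM receptors that protects vascular cells, was at 78.1, 219 and 171 CPM in the naive and 371, 388 and 248 CPM in the post-MI libraries. GAS6 did not overlap between the groups, and its log2 fold change was 1.10 ± 0.38 (SE, edgeR adjusted p = 0.555), or 0.79 without naive replicate 1. GGCX, the carboxylase that activates MGP and GAS6, was at 87.4, 109 and 86.2 CPM with naive and 84.3, 67.5 and 76.2 CPM with post-MI plasma. It did not overlap either (log2 fold change -0.31 ± 0.16 SE, edgeR adjusted p = 0.581).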

How the data were processed

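A stranded mRNA kit and paired reads of 150 bp were used, per the labels' protocols. Per the submitters' processing notes, the authors name the sheep build Oar_v3.1 and the tools DESeq2 1.26.0, featureCounts 2.0.0, STAR 2.5.2b and SAMtools 1.9, beside quality reports. For annotation and strand setting the sources used here give nothing, so overlapping and antisense genes could share reads. The deposited table holds raw counts per gene symbol. The deposited per-library signal is these counts over a single factor for each library (100% of non-zero counts within 0.01%) and was not tested separately.

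Counts were analysed in R 4.3.3. The edgeR 4.0.16 function filterByExpr (minimum count 10, minimum total 15) kept 14326 genes, which were scaled by TMM. The plasma groups were compared by the quasi-likelihood test with Benjamini-Hochberg adjustment over all genes, at 0.05. The SE was derived from the log2 fold change and the F statistic. The alternatives were the DESeq2 1.42.0 Wald test, limma-voom (3.58.1), other scalings and filters, a block for replicate number, and fits leaving out single libraries. No planned ALPL to ENPP1 ratio was formed, as ALPL had at most 1 count. On simulated data of this design (14326 genes, 5 runs) edgeR recovered 37.8% of 2-fold and 93.6% of 4-fold changes. Of its calls there, 3.95% were false (DESeq2: 10.6%). Recovery at the spread of the members was not tested separately. Their median within-group SD was 0.64 on the log2 CPM scale, against 0.26 for all genes tested.

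The members and lists were chosen with earlier results of these data known. Named genes are the members, the 2 genes of smallest p in each list and the 3 genes closest in pattern to the 3 most variable members; others were named after their values were seen. RefSeq symbols (ARS-UI_Ramb_v3.0) matched 10 of 10 members, and coordinates were left out since that is another build.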

Additional observations from a re-analysis of the deposited data

How the results depend on the processing

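The counts of called genes changed under 1 alternative. The DESeq2 Wald test called 218 genes where edgeR called 0, and 1 pathway gene (ID2, adjusted p = 0.00300), and it called 0 members. In edgeR the counts were 0 for all genes, members and pathway genes under the other scalings and filters, and from 0 to 0 with each library left out. limma-voom, run once with all libraries, also called 0. Across all alternatives the adjusted p of ID2 ran from 0.00300 to 0.871 and that of BMP6 from 0.468 to 0.967. The 8 tested members kept their sign in all 54 fold changes from alternatives that used all libraries, which share the same counts. SOX9 and MGP had no value under the filter of 1 CPM in 3 libraries. With 1 library left out, log2 fold changes ran from -0.29 to 0.49 for SOX9, -0.41 to 0.42 for ENPP1, -1.17 to 0.13 for SPP1 and -2.13 to 0.38 for MGP, and in other genes from -1.17 to 0.15 for RUNX1, -1.09 to 0.37 for ACKR1, -1.31 to 0.69 for MMP3 and -1.32 to 0.13 for ARHGEF37. The MGP to BMP2 log2 ratio difference of -0.16 ran from -1.09 to 0.98. The labels do not say whether replicate numbers pair the libraries. Deviations from the group means correlated at 0.15, -0.11 and 0.09 for numbers 1, 2 and 3. These values were not compared with those of unmatched numbers, so they cannot settle whether libraries were paired. With the replicate block edgeR called 0 genes and 0 members. Depth limits ALPL, MSX2, BMP2, SOX9 and MGP, whose counts were 22 or fewer in most libraries.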

Other observations

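Several bone-related genes outside the members had values in naive replicate 1 that differed from all other libraries, and were singled out after their values were seen. OMD (osteomodulin), a proteoglycan of mineralized matrix, had 0 counts in naive replicate 1, which allows up to 0.150 CPM, and was at 5.38 and 3.38 CPM in naive replicates 2 and 3 and 2.80 to 5.71 CPM with post-MI plasma. OGN (osteoglycin), a related proteoglycan, also had 0 counts there and 0.61 to 2.19 CPM in the other 5 libraries. ATOH8, a BMP-responsive factor of endothelial cells, was at 0.10 CPM there and 1.96 to 3.48 CPM elsewhere. Among factors that were higher there, SLC20A1, a sodium-phosphate cotransporter, was at 163 CPM against 63.7 to 86.4 CPM in the other libraries.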
